A study of Homo sapiens with 6 samples.

Results

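The major histocompatibility complex (MHC) on the short arm of chromosome 6 was examined in ChIP-seq peak lists from NCI-H526, an established line of human small cell lung cancer cells. Its members were all distinct peak intervals that overlapped a fixed span of 3.8 Mb on hg19, and they reached from chr6:29599358 to chr6:33400331. The span was divided by position into class I (1.9 Mb), class III (0.8 Mb) and class II (1.1 Mb). Class I intervals lay in chr6:29599358-31467570, class III intervals in chr6:31506579-32176884 and class II intervals in chr6:32765069-33400331. They numbered 684 of 271093 intervals in 4 lists. LSD1 peaks from cells given GSK552, an LSD1 inhibitor, numbered 110 of 49597, and LSD1 peaks from cells given DMSO, the vehicle, numbered 72 of 45188. H3K4me2 intervals numbered 288 of 81619 and H3K4me1 intervals 214 of 94689, both from cells given DMSO. The labels give 1 µM GSK2879552 for 24 h as the treatment, and this was read as applying to the GSK552 cells. Each list came from 1 library of the same cell line, and 2 further input samples were not used here. No group had a replicate, so the treatment itself was not tested, and lists are compared as single libraries. One H3K4me2 interval lay across the start of the region and one H3K4me1 interval across its end, and both were kept. No interval of any list was placed on the alternative MHC haplotypes of hg19, nor on any sequence besides the numbered chromosomes, X and Y. Whether the alignment included such haplotypes was not given in the sources used here. No gene expression was analysed here, so the cell line was not checked against markers.

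The MHC is one of the most gene-dense parts of the human genome. Its class I part holds the genes for the molecules that show peptides from inside the cell to cytotoxic T cells. The class III part holds genes of the complement system, of tumour necrosis factor and of heat shock proteins, and the class II part holds the HLA-DR, HLA-DQ and HLA-DP genes of antigen-presenting cells and genes that process and load peptides, such as TAP1, TAP2, PSMB8 and PSMB9. Small cell lung cancers often have low levels of class I molecules. LSD1 (KDM1A) removes methyl groups from H3K4me2 and H3K4me1, which mark promoters and enhancers: H3K4me2 is found at both and H3K4me1 mostly at enhancers. The gene table at hand is on another build than the peaks, so no gene is named at any interval.

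Both marks were dense in the MHC, and H3K4me2 was the denser. There were 75.8 H3K4me2 intervals per Mb in the MHC and 27.2 per Mb on the rest of chromosome 6, a ratio of 2.79 (95% interval 2.47 to 3.15). H3K4me1 had 56.3 intervals per Mb in the MHC and 33.3 per Mb on the rest of chromosome 6, a ratio of 1.69 (1.47 to 1.94). LSD1 with inhibitor had 28.9 peaks per Mb in the MHC and 17.8 per Mb on the rest of the chromosome, a ratio of 1.63 (1.34 to 1.97). LSD1 with DMSO had 18.9 peaks per Mb in the MHC and 16.7 per Mb on the rest of the chromosome, a ratio of 1.14 whose interval of 0.886 to 1.43 includes 1. These intervals, like all those that follow, are 95% intervals for counting error only, neighbouring peaks are not independent, and none is adjusted for the number of comparisons.

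Against its own neighbourhood the MHC stood out differently. The flanks, 3.8 Mb on each side, held 75.4 H3K4me2 intervals per Mb, and the ratio of the MHC to them was 1.01 (0.869 to 1.16). LSD1 peaks, however, were sparser in the MHC than in its flanks: the flanks held 42.8 per Mb with inhibitor and 37.9 per Mb with DMSO, so that the ratios of the MHC to the flanks were 0.677 (0.540 to 0.843) with inhibitor and 0.50 (0.381 to 0.649) with DMSO. The direction for LSD1 with inhibitor therefore depends on the comparison, above the rest of the chromosome and below the flanks. The flank below the region held 21.6 H3K4me1 intervals per Mb and the flank above it 75.5, with the MHC between them.

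**Figure D1:**
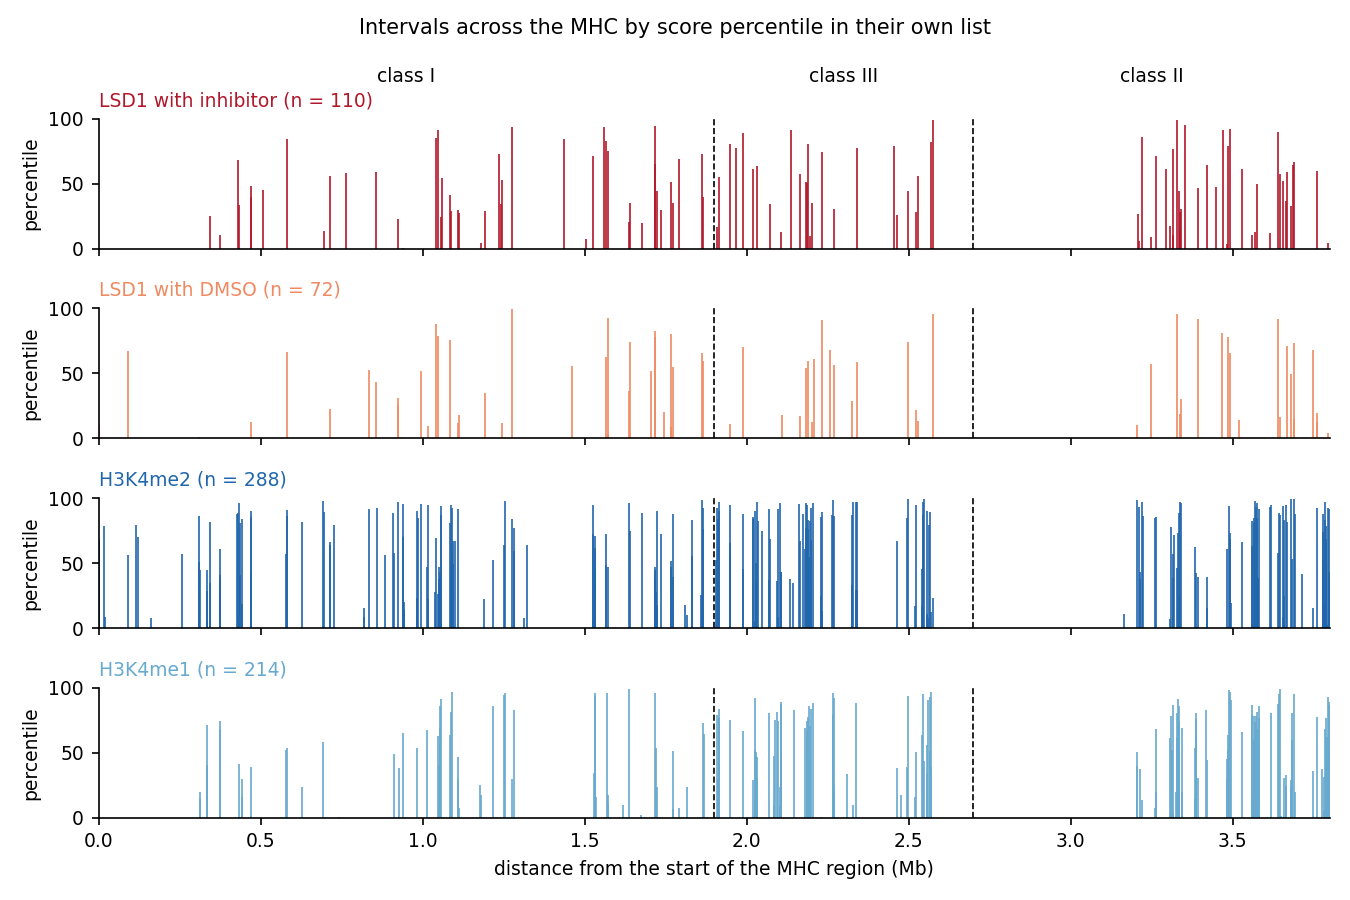
Position of every interval of the 4 lists in the MHC, by distance from the start of the region in Mb; the height of a line is the percentile of the interval's score in its own list (100 is the highest score), and dashed lines are the borders between the classes. All 4 lists are empty over a stretch of 588 kb across the border of class III and class II, and class I carries fewer H3K4me1 lines (62) than H3K4me2 lines (129).

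The 3 classes carried the marks in different proportions. Class III had the highest H3K4me2 density, at 98.8 intervals per Mb, which covered 11.1% of its bases; class II had 72.7 per Mb and class I 67.9 per Mb. H3K4me1 stood at 80 intervals per Mb in both class III and class II and at 32.6 per Mb in class I. These densities include an empty stretch across the border of class III and class II, most of it in class II. In the part of class II above the stretch without LSD1, there were 131 H3K4me2 and 145 H3K4me1 intervals per Mb. The order of class III and class II thus depends on that stretch. The H3K4me1 density of class I was 0.98 of that on the rest of chromosome 6 (0.750 to 1.26), whereas that of class III and of class II was 2.40 times as high. The number of H3K4me2 intervals over that of H3K4me1 intervals was 2.08 in class I (1.53 to 2.86), 1.23 in class III (0.877 to 1.74) and 0.909 in class II (0.663 to 1.24). Over the rest of the lists it was 0.861, so class I held relatively more H3K4me2 than H3K4me1, and the flanks, at 1.55, did too.

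**Figure D2:**
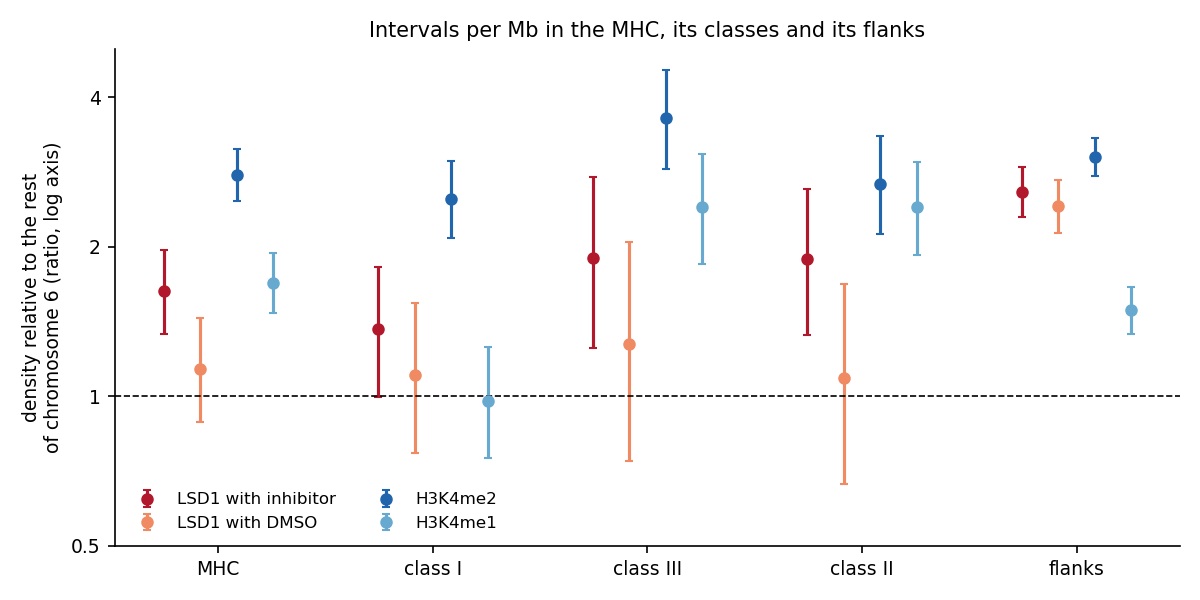
Density of intervals (number per Mb) relative to the rest of chromosome 6 on a log axis, for the MHC, its 3 classes and the flanks of 3.8 Mb on each side, with 95% intervals for counting error. The dashed line is equal density. For the MHC and its classes the rest is chromosome 6 without the MHC. For the flanks it leaves out the flanks as well. H3K4me2 is above 2 in the MHC and each class, LSD1 with DMSO includes 1 in the MHC and each class, and both LSD1 lists are higher in the flanks than in the MHC.

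The longest empty stretch lay at chr6:32176885-32765068. Over these 588 kb none of the 4 lists held an interval, and LSD1 in either condition was absent for 629 kb, to chr6:32806084. Of the marks, 2 H3K4me2 and 2 H3K4me1 intervals overlapped the stretch without LSD1, near its far end. The first was a weak H3K4me2 interval of 425 bp at chr6:32765069-32765493, which had a fold of 4.39 and ranked 72483 of 81619 in its list. The strongest was an H3K4me2 interval of 1501 bp at chr6:32804730-32806230, which ranked 1396, ran past the end of the stretch and overlapped the first DMSO LSD1 peak beyond it. The remainder of class II was dense, with 62.3 LSD1 peaks per Mb with inhibitor, 33.7 with DMSO, 131 H3K4me2 intervals and 145 H3K4me1 intervals per Mb. Chromosome 6 held 6 longer stretches without any interval, and all chromosomes together 251. Without an hg19 annotation, stretches in assembly gaps or centromeres could not be set apart. These counts therefore do not show how usual such a length is within mapped sequence. Shorter stretches without any interval measured 113 kb in class III (chr6:31941916-32055270) and 113 kb in class I (chr6:30923853-31036705). For reads that match several places the authors' treatment was not given in the sources used here, and its part in these stretches was not tested.

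H3K4me2 intervals of the MHC ranked high in their list and were wide, while LSD1 peaks were ordinary in rank. Of the 288 H3K4me2 intervals, 62 (21.5%, 17.2 to 26.6) were among the highest-scoring 10% of the list. Their median width was 672 bp, against 410 bp in the rest of the list, and 14.2% measured 2 kb or more, against 7.24% in the rest. The share in the highest 10% was 27.8% in class III, 25% in class II and 15.5% in class I. For H3K4me1 the share was 11.7% (8.04 to 16.7), for LSD1 with inhibitor 9.09% (5.01 to 15.9) and for LSD1 with DMSO 9.72% (4.79 to 18.7), each close to the 10% that the whole list has. No LSD1 peak in the MHC reached 2 kb, against 2.30% of the rest of the inhibitor list and 2.68% of the rest of the DMSO list. Shares of that size stand for few peaks among 110 with inhibitor and 72 with DMSO, so no difference in this share was shown.

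The widest H3K4me2 interval of the region measured 7231 bp with 28 summits (chr6:33084398-33091628, class II). It carried H3K4me1 and LSD1 in both conditions. In class I the widest was 4839 bp long (chr6:31235158-31239996), and the widest H3K4me1 interval of the region, at 4505 bp (chr6:31234528-31239032), lay on it, again with LSD1 in both conditions. In class III the widest H3K4me2 interval had 3489 bp (chr6:31802746-31806234) and was overlapped by LSD1 with inhibitor but not with DMSO. The inhibitor peak, chr6:31801999-31802788, reached only its lower edge. That peak overlapped a DMSO peak, chr6:31802189-31802411, which ended before the H3K4me2 interval, so the LSD1 site itself was in both lists. All 9 of the widest H3K4me2 intervals, 3 in each class, overlapped H3K4me1, and 3 of them held no LSD1 in either condition.

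H3K4me1 in the MHC lay mostly on H3K4me2, which set the region apart from the rest of the list and from the flanks. Of 214 H3K4me1 intervals, 180 (84.1%) overlapped H3K4me2, against 47.4% of the whole list. The share was 36.8 points above the rest of the list (31.3 to 41.1) and 33.98 points above the flanks (26.5 to 40.6), where it was 50.1%. It was alike in the 3 classes, at 87.1% in class I, 84.4% in class III and 81.8% in class II, with differences whose intervals include 0. When the summit of an H3K4me1 interval had to lie inside an H3K4me2 interval, the share was 71.0% in the MHC and 35.9% in the rest of the list. H3K4me2 covered 7.96% of the bases of the MHC, 5.78% of those of the flanks and 1.95% of those on the rest of chromosome 6, and its part in this share was not tested.

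In the other direction, 165 of 288 H3K4me2 intervals (57.3%) overlapped H3K4me1, against 63.1% of the whole list, a difference from the rest of -5.87 points (-11.6 to -0.276). The share was lowest in class I at 48.1%, followed by 58.2% in class III and 71.2% in class II, and class I minus class II was -23.2 points (-35.4 to -9.48). With a reciprocal overlap of 50% the share was 16.0% in the MHC and 15.2% in the rest, so the direction of the difference over the whole region rests on how overlap is counted. It rests on the comparison as well, since the flanks had 38.4% and the MHC was 18.9 points above them (11.8 to 25.7).

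LSD1 peaks in the MHC lay more often on H3K4me2 than LSD1 peaks elsewhere. With inhibitor 83 of 110 peaks (75.5%) overlapped H3K4me2, against 52.9% of the whole list, 22.6 points above the rest (13.8 to 29.7). With DMSO 47 of 72 peaks (65.3%) did, against 50.4% of the whole list, 14.9 points above the rest (3.38 to 24.9). H3K4me1 lay under fewer of them: 26 of 110 peaks with inhibitor (23.6%) against 39.5% of the whole list, and 17 of 72 with DMSO (23.6%) against 41.5%, differences from the rest of -15.9 points (-22.9 to -7.14) with inhibitor and -17.96 points (-26.3 to -6.97) with DMSO. Peaks on neither mark were 24 of 110 with inhibitor (21.8%, against 37.6% of the whole list) and 24 of 72 with DMSO (33.3%, against 39.8%). The largest set was LSD1 on H3K4me2 without H3K4me1, with 60 of 110 peaks with inhibitor (54.5%) and 31 of 72 with DMSO (43.1%), against 22.8% of the rest of the inhibitor list and 18.7% of the rest of the DMSO list.

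The makeup of LSD1 peaks in the flanks was nearer to that of the MHC. There 66.2% of LSD1 peaks with inhibitor and 58.7% of those with DMSO overlapped H3K4me2, and the MHC differed from them by 9.30 points (-0.795 to 18.2) with inhibitor and 6.60 points (-6.18 to 18.1) with DMSO. H3K4me1 lay under 25.5% of the flanks' peaks with inhibitor and 23.6% of those with DMSO. For H3K4me2 a difference from the rest of the lists was thus shown at 1 shared bp, and one from the flanks was not. H3K4me2 covered 7.96% of the bases of the MHC, 5.78% of those of the flanks and 1.95% of those on the rest of chromosome 6. The part of this coverage in the shares was not tested. With a reciprocal overlap of 50%, the share on H3K4me2 was 10.9% with inhibitor in the MHC and 13.5% in the rest, and 11.1% with DMSO in the MHC and 14.2% in the rest, so the direction turned.

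**Figure D3:**
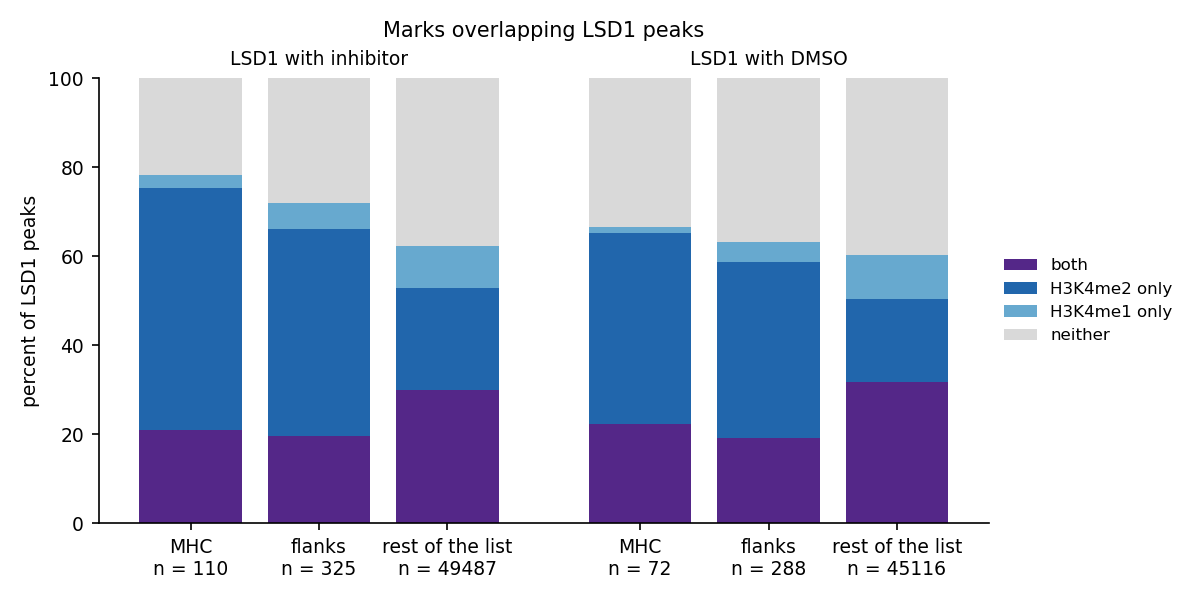
Percent of LSD1 peaks that overlapped both marks, H3K4me2 only, H3K4me1 only or neither, in the MHC, in its flanks and in the rest of the list, with inhibitor and with DMSO; n is the number of peaks. The segment for H3K4me2 only is wider in the MHC (54.5% with inhibitor, 43.1% with DMSO) than in the rest of the lists (22.8% with inhibitor, 18.7% with DMSO), and the flanks lie nearer to the MHC.

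Between the classes, LSD1 with DMSO differed in its relation to H3K4me1. Of 20 class II peaks, 10 overlapped H3K4me1, as did 1 of 17 class III peaks and 6 of 35 class I peaks. Class III minus class II was -44.1 points (-64.8 to -15.0), and class I minus class II was -32.9 points (-54.9 to -7.47). With inhibitor the numbers were 11 of 37 in class II, 4 of 27 in class III and 11 of 46 in class I, and the intervals of those differences include 0.

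The inhibitor list held more LSD1 peaks in the MHC than the DMSO list, by more than in the lists as a whole. The ratio of peak numbers was 1.53 (1.12 to 2.09), with 110 peaks with inhibitor and 72 with DMSO, while it was 1.10 over the rest of the lists, 1.06 on the rest of chromosome 6 and 1.13 in the flanks, the last just inside that interval. By class it was 1.85 in class II (37 peaks with inhibitor, 20 with DMSO), 1.59 in class III (27 with inhibitor, 17 with DMSO) and 1.31 in class I (46 with inhibitor, 35 with DMSO), and their intervals overlap. The inhibitor list held stronger peaks in general: 75.3% of its peaks had a −log10 q of 2 or more, as did 48.0% of those with DMSO. Above that value the MHC held 87 peaks with inhibitor and 38 with DMSO, a ratio of 2.29 (1.55 to 3.45), and the rest of the lists had a ratio of 1.72, which lies inside that interval.

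Fewer of the inhibitor peaks in the MHC had a counterpart with DMSO. Of 110 inhibitor peaks, 50 (45.5%) overlapped a DMSO peak, against 58.1% of the whole list, a difference of -12.6 points from the rest (-21.7 to -3.34) and of -16.7 points from the flanks (-27.0 to -5.95). Of 72 DMSO peaks, 50 (69.4%) overlapped an inhibitor peak, against 63.2% of the whole list, a difference of 6.30 points from the rest whose interval of -5.11 to 15.7 includes 0. The 60 inhibitor-only peaks were divided over class I (23), class III (14) and class II (23). Of these 60, 31 lay on H3K4me2 only, 11 on both marks, 2 on H3K4me1 only and 16 on neither. The share on H3K4me2 only was 51.7%, against 22.2% of 20734 inhibitor-only peaks in the rest of the list, a difference of 29.5 points (17.1 to 41.6). Among the 22 DMSO-only peaks, 8 lay on H3K4me2 only, 4 on both marks, 1 on H3K4me1 only and 9 on neither. In the rest of the DMSO list, 17.8% of DMSO-only peaks lay on both marks, 11.2% on H3K4me1 only and 59.6% on neither. The matching shares in the MHC were 18.2% on both, 4.55% on H3K4me1 only and 40.9% on neither. The share of DMSO-only peaks on H3K4me2 only was 36.4%, against 11.4% of 16628 in the rest, a difference of 24.97 points (8.33 to 45.7). Peaks of either list alone thus lay more often on H3K4me2 only in the MHC than in the rest of their list. Of the 50 shared peaks in the MHC, 29 with inhibitor and 23 with DMSO lay on H3K4me2 only. Among all LSD1 peaks of the flanks, 46.5% with inhibitor and 39.6% with DMSO did. Peaks of a single list were not compared with the flanks. Of the 60 inhibitor-only peaks, 38 (63.3%) stood more than 10 kb from the nearest DMSO peak, against 52.0% in the rest, and the difference of 11.3 points (-1.37 to 22.4) includes 0. Of the 22 DMSO-only peaks, 11 (50%) stood that far from an inhibitor peak, against 47.4% in the rest. These comparisons with the rest were chosen after the values were seen.

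Seen from the marks, LSD1 was sparse on the H3K4me2 of the MHC, above all with DMSO. Of 288 H3K4me2 intervals, 99 (34.4%) held an LSD1 peak with inhibitor, against 40.8% of the whole list, a difference from the rest of -6.48 points (-11.7 to -0.815). With DMSO 55 of them (19.1%) held one, against 35.4% of the whole list, a difference from the rest of -16.4 points (-20.5 to -11.5). The flanks, with a like density of H3K4me2, had LSD1 on 51.3% of their intervals with inhibitor and 42.1% with DMSO, and the MHC differed from them by -16.9 points (-23.6 to -9.95) with inhibitor and -22.96 points (-28.8 to -16.6) with DMSO. On H3K4me1 the pattern was the same: 28 of 214 intervals (13.1%) held LSD1 with inhibitor, against 23.8% of the whole list, and 14 (6.54%) held LSD1 with DMSO, against 23.7%. In class III a single H3K4me1 interval of 64 held LSD1 with DMSO, and 4 did with inhibitor.

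The low LSD1 share with DMSO held among H3K4me2 intervals of like strength and like width, a division chosen after the values were seen. In the quartile of the list with the highest scores, LSD1 with inhibitor lay on 65 of 125 MHC intervals (52%) and on 67.4% of the rest, and LSD1 with DMSO on 36 of 125 (28.8%) and on 55.9% of the rest. In the quartile with the lowest scores the values with inhibitor were 7.55% in the MHC and 19.0% in the rest, and with DMSO 1.89% in the MHC and 18.9% in the rest. With DMSO the interval of the difference was below 0 in all 4 quartiles and in all 3 width classes. With inhibitor it was below 0 in 3 quartiles and 2 width classes, and it included 0 in the second-lowest quartile and among intervals of 2 kb or more, where 70.7% in the MHC and 78.1% in the rest held LSD1.

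**Figure D4:**
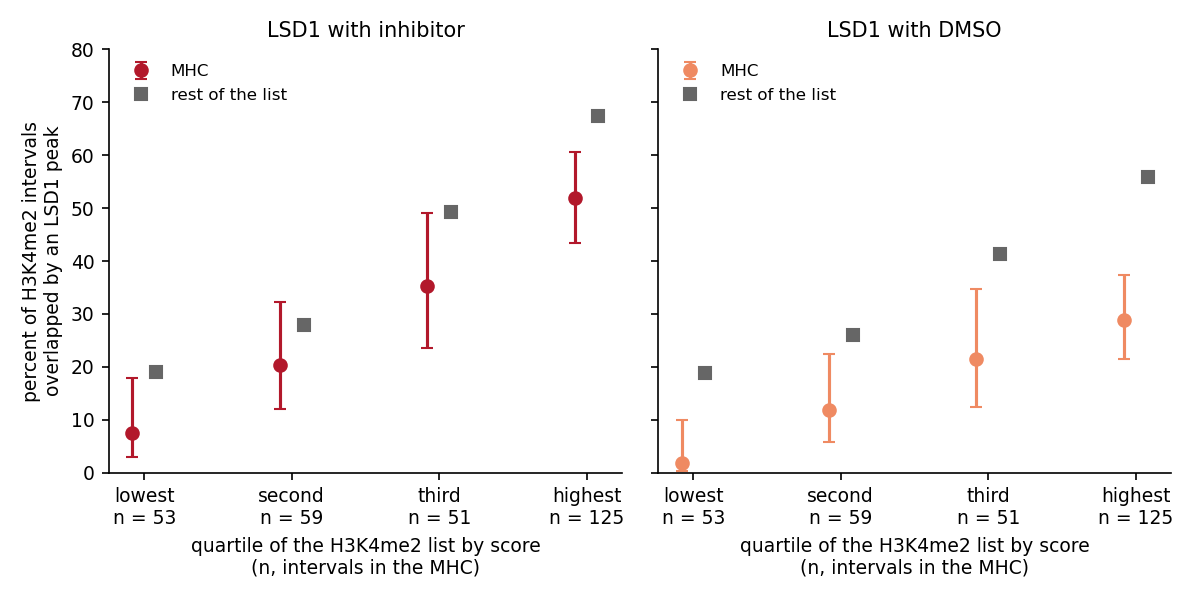
Percent of H3K4me2 intervals overlapped by an LSD1 peak with inhibitor and with DMSO, by quartile of the whole H3K4me2 list in order of score; circles are the MHC with 95% Wilson intervals, squares the rest of the list. The MHC lies below the rest in every quartile, and in the highest it stands at 52% with inhibitor and 28.8% with DMSO.

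The same H3K4me2 intervals were then compared between the LSD1 lists. Of the 288 intervals, 46 held LSD1 in both conditions, 53 with inhibitor only, 9 with DMSO only and 180 in neither. The share with inhibitor exceeded that with DMSO by 15.3 points (10.2 to 20.4, Newcombe's interval for paired shares), against 5.36 points in the rest of the list. The difference between these values was 9.92 points (4.78 to 15.0), and against the flanks, at 9.25 points, it was 6.03 points (-0.361 to 12.4). By class the gap was 21.2 points in class II, 16.5 in class III and 10.9 in class I, and the intervals of the differences between classes include 0. With LSD1 lists cut to equal length the gap was 13.2 points in the MHC and 2.94 in the rest. Without LSD1 peaks under a −log10 q of 2 it was 15.6 points in the MHC and 12.4 in the rest. In the highest-scoring 50% of each list the gap in the MHC was 9.09 points. When the summit of the H3K4me2 interval had to lie in an LSD1 peak, it was 4.51 points. Both values are below the interval of 10.2 to 20.4, so the size of the gap rests on how overlap is counted and on which intervals are kept.

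The gap was wider on H3K4me2 that also carried H3K4me1 than on H3K4me2 without it, by 15.3 points (5.03 to 25.5). Of 165 such intervals, 66 (40%) held LSD1 with inhibitor and 30 (18.2%) held it with DMSO: 38 held it with inhibitor only and 2 with DMSO only. The gap of 21.8 points (14.9 to 28.6) was 19.1 points above that of the rest of the list (12.14 to 25.83) and 13.2 points above that of the flanks (3.57 to 22.8). With LSD1 lists of equal length it was 18.8 points in the MHC and 0.385 in the rest, and without LSD1 peaks under a −log10 q of 2 it was 19.4 points in the MHC and 10.3 in the rest. On the 123 intervals without H3K4me1, 33 (26.8%) held LSD1 with inhibitor and 25 (20.3%) with DMSO, a gap of 6.50 points (-1.10 to 14.1), against 9.83 points in the rest. In the rest of the list the gap was thus smaller with H3K4me1 (2.75 points) than without it, the opposite order. The order in the MHC stood with lists of equal length, where the gap without H3K4me1 was 5.69 points, and without peaks under that −log10 q, where it was 10.6 points. It turned in the highest-scoring 50% of each list, where the gap was 7.89 points with H3K4me1 (-2.10 to 18.0) and 10 points without it. When the summit of the H3K4me2 interval had to lie in an LSD1 peak, it was 6.06 points with H3K4me1 and 2.44 without it. The split by H3K4me1 was chosen after the values were seen.

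**Figure D5:**
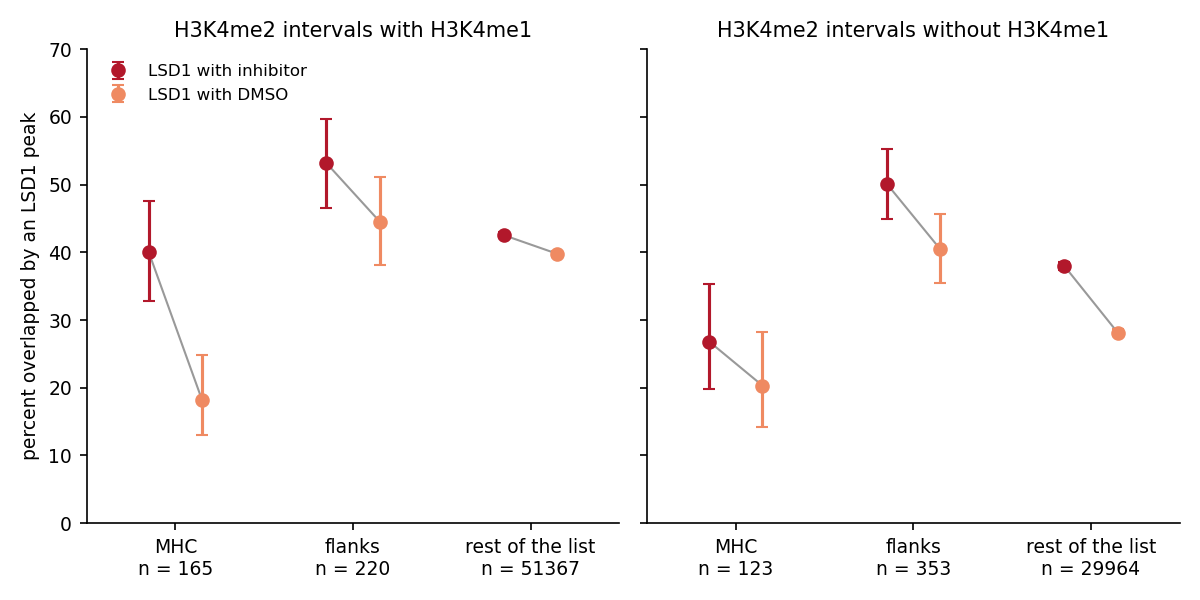
Percent of the same H3K4me2 intervals overlapped by an LSD1 peak with inhibitor and with DMSO, joined by a line, for intervals with and without H3K4me1, in the MHC, its flanks and the rest of the list; bars are 95% Wilson intervals and n is the number of intervals. The steepest line is that of the MHC with H3K4me1 (40% with inhibitor, 18.2% with DMSO).

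Peaks are named here by rank of score within each class. The fold enrichment, −log10 q and rank of a peak are the authors' values in its own list, and ranks or folds from 2 lists do not show a change. The highest-scoring LSD1 peak with inhibitor in the region lay in class III at chr6:32175287-32176603, just before the empty stretch. It ranked 390 of 49597 with a fold of 7.70, measured 1317 bp and lay on H3K4me2 without H3K4me1. The DMSO peak that overlapped it, chr6:32176071-32176884, was the highest in class III with DMSO at rank 1857 of 45188 and a fold of 5.13, but lay further along and overlapped neither mark. In class II the same site led both lists: chr6:32929384-32930548 with inhibitor had a fold of 8.63 and rank 454, and chr6:32929514-32930464 with DMSO a fold of 4.70 and rank 1841, both on both marks. This site belonged to a cluster of 5 inhibitor peaks over 10.7 kb, all on H3K4me2, in which the DMSO list held 3 peaks.

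In class I the leading site differed. The highest-scoring DMSO peak of the whole region was chr6:30875207-30875813, at rank 333 of 45188 with a fold of 6.97, and the inhibitor peak over it, chr6:30875191-30875937, had rank 3251 with a fold of 4.87. Neither of these peaks overlapped a mark, and each list went without a further LSD1 peak for over 160 kb above it. With inhibitor the highest in class I was chr6:31318403-31318836, at rank 2616 with a fold of 6.22, which overlapped both marks and a DMSO peak of rank 8004.

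The highest inhibitor-only peak in each class overlapped neither mark. They were chr6:32952630-32952816 in class II (187 bp, fold 7.03, rank 2340), chr6:31160011-31160536 in class I (fold 5.64, rank 3176) and chr6:31737624-31737833 in class III (210 bp, fold 5.82, rank 4246). DMSO-only peaks had lower ranks in their list: the highest was chr6:33288653-33288818 in class II, at rank 11859 of 45188 with a fold of 4.26, on both marks. The highest DMSO-only peaks of class I and class III stood at ranks 14699 and 14629.

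Joined where at most 12500 bp apart, the LSD1 peaks formed 64 clusters with inhibitor, of which 41 held 1 peak, and 49 clusters with DMSO, of which 32 held 1 peak. The richest cluster with inhibitor had 8 peaks over 52.1 kb in class II (chr6:33238823-33290964). Of these 8 peaks, 6 lay on H3K4me2, 2 on H3K4me1 and 3 on a DMSO peak, while the DMSO list had 6 peaks within the same span. In class III the richest had 6 peaks over 20.2 kb (chr6:31782564-31802788), all on H3K4me2, with 3 DMSO peaks inside. No DMSO cluster in the region held more than 3 peaks.

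The 50 LSD1 peaks found in both conditions formed 50 pairs of 1 peak with inhibitor and 1 with DMSO. The inhibitor peak was the wider in 34 of the 50 pairs (68%), against 45.7% of pairs in the rest of the lists, a difference of 22.3 points (8.49 to 33.6). The median width of the paired peaks was 839.5 bp with inhibitor and 501 bp with DMSO in the MHC, against 513 bp with inhibitor and 569 bp with DMSO in the rest. The inhibitor peak was the wider in 16 of 23 pairs in class I, 9 of 13 in class III and 9 of 14 in class II. Both peaks overlapped the same marks in 38 of 50 pairs (76%), against 88.2% of pairs in the rest, a difference of -12.2 points (-25.6 to -2.49). These comparisons were chosen after the values were seen, and none was made with the flanks.

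With inhibitor the 24 LSD1 peaks without a mark had a median distance of 6793.5 bp to the nearest marked interval, with 6 within 1 kb and 10 beyond 10 kb. With DMSO the 24 unmarked peaks had a median of 364.5 bp, with 13 within 1 kb and 4 beyond 10 kb. The share within 1 kb with inhibitor was 25% in the MHC and 24.1% in the rest of the list, a difference of 0.905 points (-12.1 to 20.8). With DMSO it was 54.2% in the MHC and 19.5% in the rest, a difference of 34.7 points (15.6 to 52.6). Unmarked DMSO peaks thus lay more often within 1 kb of a mark in the MHC than in the rest of the list. This comparison was chosen after the values were seen, and none was made with the flanks. Both marks were denser in the MHC than on the rest of chromosome 6, and the part of that density in this share was not tested. The unmarked inhibitor peaks were narrow, at a median of 199 bp, and those with DMSO had a median of 317.5 bp. The local background implied by the fold and −log10 p of each peak, relative to the median of its list, had medians of 1.01 for LSD1 with inhibitor, 1.10 for LSD1 with DMSO, 1 for H3K4me2 and 1.06 for H3K4me1 in the MHC. The highest single value in the MHC was 3.00, at an H3K4me2 interval.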

How the data were processed

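ChIP-seq peak lists of 4 NCI-H526 libraries were used, 1 per group, with groups taken from the sample descriptions. BWA, Picard and MACS2 2.0 with build hg19 are named in the submitters' processing notes; the control, duplicate handling, depth and treatment of multiply matching reads stay unknown, as not given in the sources used here. Having no header, the files were read by MACS2's layout. Each deposited score is 10 times the −log10 q. The deposited fold enrichment is a ratio over the caller's background, and the −log10 p and −log10 q of each peak are deposited values of the authors. LSD1 lists are broad peaks that reach down to a −log10 q of 1.00, and histone lists are narrow peaks from 2.01, with several summits for an interval, which were reduced to distinct intervals with the highest value kept. Widths, and overlaps between LSD1 and mark lists, depend on this.

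An interval counted as overlapped at 1 shared bp. Shares carry Wilson intervals, their differences Newcombe intervals, and density ratios exact conditional binomial intervals, all at 95%; a difference of 2 paired differences combines their own intervals. Of the overlaps, 14 shares were compared with the rest of the list, for the MHC and for each class. Further comparisons with the rest, by mark set, score, width, subset, pair and paired gap, came on top of these. Comparisons with the flanks were chosen after the values were seen. Intervals across a border went to the class that holds their centre. The named peaks are the 3 highest-scoring LSD1 peaks of each kind, the 3 widest intervals of each mark and the 3 richest clusters in each class; the text gives the leading ones. Chromosome length was the largest peak end. The scripts were tested on simulated data. Members, lists and tests were chosen with earlier results of these data known. No hg19 genome or annotation was at hand, so genes at the intervals and sequences were not analysed here; gene names in the background are those of RefSeq's table on GRCh38, where all 29 names looked up were found. Python 3.11.15, numpy 2.4.6, pandas 2.3.3, scipy 1.17.1 and matplotlib 3.10.9 were used.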

Additional observations from a re-analysis of the deposited data

How the results depend on the processing

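With borders between the classes moved by 100 kb either way, all 96 class values stayed within the interval of the reported value, and so did all 16 values for intervals wholly inside the region and the 2 shares with LSD1 lists of equal length. Over all settings for the whole region 40 of 90 values left that interval. Against the flanks the density ratio fell below 1 for LSD1 with inhibitor (0.677) and stood at 0.50 with DMSO, 1.01 for H3K4me2 and 1.16 for H3K4me1; H3K4me2 had 3.50 in the highest-scoring 50% and 4.09 by covered bases. A reciprocal overlap of 50% moved all 12 shares it was run on: LSD1 with inhibitor on LSD1 with DMSO to 20.9% and the reverse to 31.9%, LSD1 with inhibitor and DMSO on H3K4me2 to 10.9% and 11.1%, on H3K4me1 to 1.82% and 2.78%, on neither to 88.2% and 87.5%, H3K4me2 on H3K4me1 to 16.0% and the reverse to 21.5%, and H3K4me2 with LSD1 to 4.17% and 2.78%. With centres or summits, LSD1 with inhibitor had 29.1% on LSD1 with DMSO, 51.8% on H3K4me2, 10.9% on H3K4me1 and 43.6% on neither; H3K4me2 on H3K4me1 had 33.3% and the reverse 71.0%, H3K4me2 with LSD1 13.2% with inhibitor and 8.68% with DMSO, and the paired gap was 4.51 points, or 6.06 with H3K4me1. In the highest-scoring 50% of each list, LSD1 with inhibitor had 58.9% on H3K4me2, 13% on H3K4me1 and 35.7% on neither, LSD1 with DMSO had 56.4% on LSD1 with inhibitor, H3K4me2 on H3K4me1 had 43.2% and the reverse 71.8%, H3K4me2 with LSD1 with inhibitor had 25%, and the gap was 9.09 points, or 7.89 with H3K4me1. Without LSD1 peaks under a −log10 q of 2, LSD1 with inhibitor had 33.3% on LSD1 with DMSO, and H3K4me2 with LSD1 had 27.8% with inhibitor and 12.2% with DMSO. The cause of these moves was not tested. Settings for the paired gap were added once its value was known. No analysis paired by replicate was possible because no group had a second library. Read depth is unknown, so no limit from depth can be given.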
